A study of Homo sapiens with 8 samples.

Results

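The genes described here are 46 interferon-stimulated and foreign-RNA sensing genes, taken by gene symbol from a table of 60606 genes. They comprise RNA sensors and their adaptor, effectors that bind double-stranded RNA, IRF and STAT transcription factors, the type I interferon receptor with its kinases, and genes that interferon induces. Counts came from HEK293 cells, an established line of human embryonic kidney origin, transfected with a small RNA mimic by a lipid reagent (Lipofectamine RNAiMax) and collected 48 h later. One group received a mimic of the 3' tDR, a tRNA-derived RNA, of tRNA-Asp-GTC (tDR, 4 libraries) and the other a scramble mimic (scramble, 4 libraries), each at 50 nM. Both groups therefore carried a transfected small RNA, and the comparison asks how the genes differ between the 2 mimics. It does not ask what transfection itself does, since untransfected cells are not analysed here. Total RNA was sequenced from bulk cells, so a higher level in every cell and a larger share of cells with a high level cannot be told apart. Whether each library is a culture of its own is not stated in the labels. The p-values then reflect only how far these 8 libraries scatter, and that scatter may be technical.

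Cells detect foreign RNA with cytoplasmic helicases such as MDA5 (gene IFIH1) and RIG-I, which signal through the mitochondrial adaptor MAVS, and with the endosomal receptor TLR3. These pathways activate IRF3 and IRF7, which switch on interferon genes. Secreted type I interferon binds IFNAR1 and IFNAR2, the kinases JAK1 and TYK2 phosphorylate STAT factors such as STAT2, and a complex that holds STAT2 and IRF9 binds a DNA element, the ISRE, in front of interferon-stimulated genes such as the MX, OAS, IFIT and IFITM families.

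Of the 46 genes, 28 had enough counts to be tested, 9 rose in the tDR libraries, 0 fell and 19 did not pass the test. The genes that rose were MX1, SAMD9, MX2, PARP9, DTX3L, STAT2, TYK2, EIF2AK2 and ADAR, with folds from 3.61 for MX1 to 1.11 for ADAR. The test was edgeR's quasi-likelihood test with TMM scaling on all 8 libraries, and genes with a Benjamini-Hochberg adjusted p under 0.05, over all 17184 genes tested, count as called. Among all genes tested, 24.3% were called, 12.8% higher and 11.4% lower. The median log2 fold change (tDR over scramble) was 0.16 over the 28 tested genes of the set and 0.02 over all genes tested. At an unadjusted p under 0.05, 10 of the set were higher and 0 lower, and DESeq2 called 7 higher and 0 lower. The interferon-stimulated genes ISG15, IFI6, IFI27 and IFIT5 were tested and were not called. The other 18 genes were not tested: 8 were at 0 in all 8 libraries and 10 had between 2 and 74 counts in total.

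**Figure D1:**
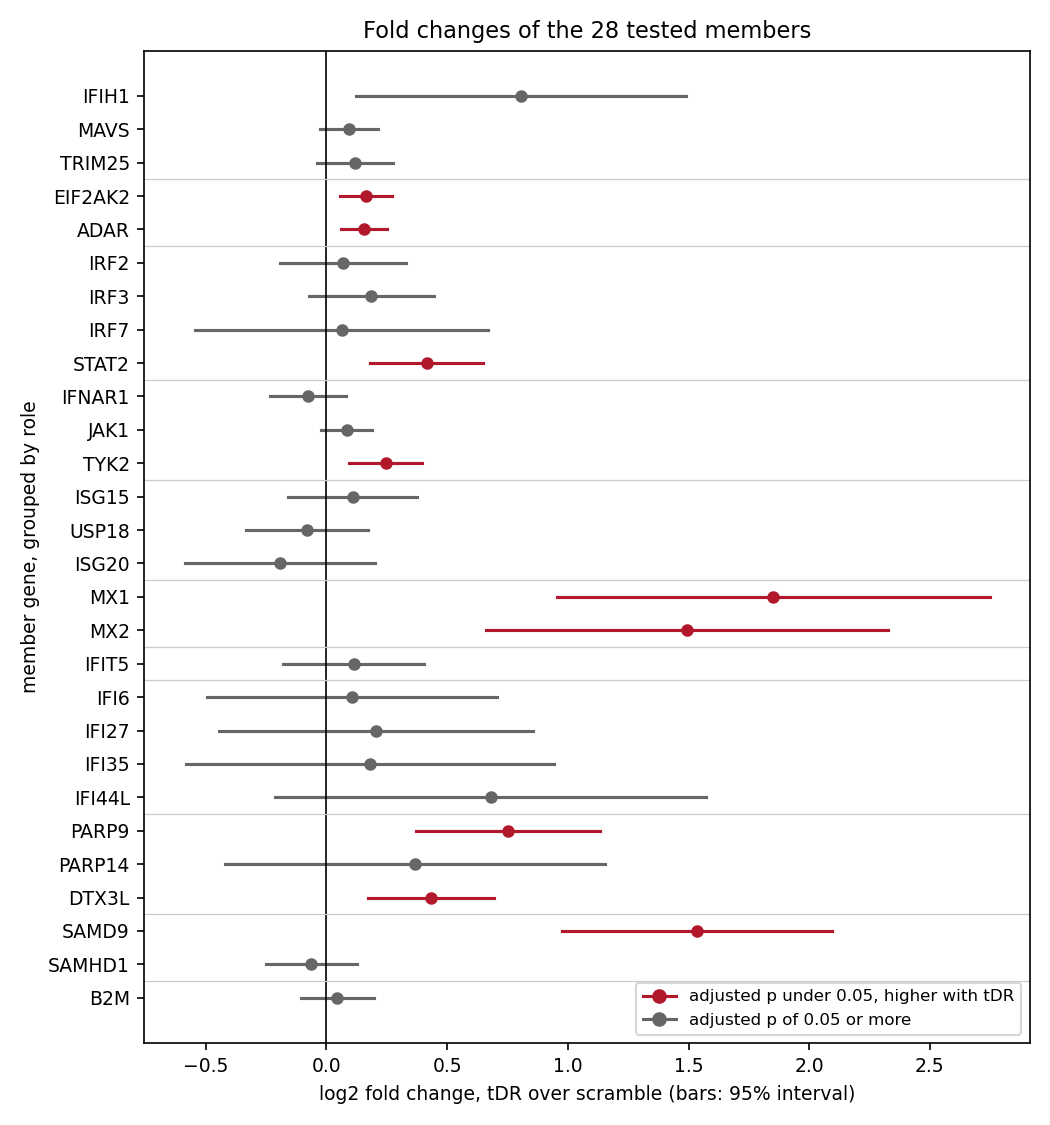
Log2 fold changes (x axis, tDR over scramble, 4 libraries each) of the 28 tested genes, grouped by role on the y axis, with 95% intervals as bars. Red marks the 9 genes called higher, of which MX1, SAMD9 and MX2 lie farthest to the right, and grey the 19 that were not called.

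The core letters of the ISRE stand near the start of genes that rose and of genes that were not called. The RefSeq promoter windows (GRCh38.p14, 250 bases before to 50 after the start) held 35 of the 46 genes and were searched on both strands for the ISRE core, GAAANNGAAA. It was found in 22 of the 35 windows and in 3.65% of all 27305 promoter windows. Of the genes called higher 4 of 8 with a window held it, of those tested and not called 9 of 15, and of those not tested 9 of 12. A match is a description of the letters and was not tested as a binding site. The 4 called genes with a match are shown first, on the gene's own strand, with the match in capitals and 10 bases on each side. They are EIF2AK2 (chr2:37156967-37156996, minus strand), MX1 (chr21:41420559-41420588, plus strand), DTX3L (chr3:122564322-122564351, plus strand) and SAMD9 (chr7:93118096-93118125, minus strand).
EIF2AK2: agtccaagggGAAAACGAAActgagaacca
MX1: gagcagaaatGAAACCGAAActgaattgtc
DTX3L: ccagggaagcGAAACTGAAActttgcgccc
SAMD9: tctgagaaatGAAACTGAAAccaaacctat
Shown next are stretches before the start of 4 interferon-stimulated genes that were tested and not called, again with matches in capitals. IFIT5 has another match that runs over the end of its stretch and is not in capitals. A match on the opposite strand reads TTTCNNTTTC. They are ISG15 (chr1:1013359-1013424, plus strand), ISG20 (chr15:88638922-88638981, plus strand), IFIT5 (chr10:89414498-89414567, plus strand) and IFI27 (chr14:94110603-94110675, plus strand).
ISG15: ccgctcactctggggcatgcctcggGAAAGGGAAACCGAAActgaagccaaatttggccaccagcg
ISG20: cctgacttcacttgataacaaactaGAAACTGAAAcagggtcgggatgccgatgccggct
IFIT5: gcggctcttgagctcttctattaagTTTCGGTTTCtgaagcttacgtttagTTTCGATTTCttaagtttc
IFI27: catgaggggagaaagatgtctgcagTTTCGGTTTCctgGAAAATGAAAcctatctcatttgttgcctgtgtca
Both sets of 4 genes are shown because each gene holds a match, so the shared core follows from that choice and is not a result. In EIF2AK2 and DTX3L the core begins 6 bases before the RefSeq start, in SAMD9 136 bases before it and in MX1 at base 12, counted from the start as base 1. A second element, the GAS (TTCNNNGAA), was found in 9 of the 35 windows against 7.88% of all windows. It stood in 0 of 8 called genes with a window, 3 of 15 tested and not called and 6 of 12 not tested, and the classes were not compared by a test.

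MX1 and MX2 encode dynamin-like GTPases that trap viral nucleocapsids, and they lie next to each other on chromosome 21, on the same strand with a gap of 10.9 kb. MX1 (chr21:41420304-41459214, GENCODE 29 on GRCh38) had 4, 6, 4 and 6 counts in scramble libraries 1 to 4 and 8, 18, 21 and 20 in tDR libraries 1 to 4. In CPM, the read count scaled to library size with TMM factors, this was 0.599 ± 0.123 (SD, n = 4) with scramble and 2.16 ± 0.595 (SD, n = 4) with tDR. The groups did not overlap, and the lowest tDR library, replicate 1, was also the least deeply counted. The log2 fold change was 1.85 with an SE of 0.45 (edgeR, adjusted p = 0.00151). MX2 (chr21:41361943-41409390) had 9, 6, 6 and 8 counts with scramble and 8, 25, 15 and 28 with tDR, or 0.865 ± 0.123 CPM and 2.41 ± 0.937 CPM (SD, n = 4 each). The groups did not overlap in CPM, although the raw count of tDR replicate 1 lay within the scramble range. Its log2 fold change was 1.49 with an SE of 0.42 (edgeR, adjusted p = 0.00579).

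The level of both MX genes was so low that reads with no relation to their transcripts matter. Olfactory receptor genes, taken here as genes that these cells do not use, served as a gauge. Whether some of them are expressed in these cells was not tested. The 270 protein-coding receptor genes that overlap no other gene held 23.8 ± 2.99 CPM per Mb of gene span with scramble and 35.8 ± 1.36 with tDR (SD, n = 4 each). The groups did not overlap, and the density was 1.51 times higher with tDR (exact two-sided permutation test, p = 0.0286, the smallest that 70 assignments can give). Multiplied by the span of MX1 outside other genes, this density gives an estimated background of 27.4 counts with scramble, where 20 were observed, and 37.4 with tDR, where 67 were observed. For MX2 the estimate was 37.9 against 29 observed with scramble and 51.8 against 76 with tDR. The scramble counts of both genes were thus no higher than the estimate, and the tDR counts were above it. This was not particular to the MX genes. PECAM1, an endothelial marker, had 46 counts against 75.3 with scramble and 130 against 103 with tDR. For ITGAM, a leukocyte marker, these were 49 against 58.3 and 91 against 79.7. CDH5, another endothelial marker, crossed the estimate as well, at 28 against 30.5 with scramble and 63 against 41.7 with tDR. So did CD79A, a leukocyte marker with few counts, at 1 against 3.40 and 9 against 4.65. Some other such markers did not cross the estimate. DCN lay below it in both groups (16 against 34.1, 36 against 46.6) and VWF above it (154 against 140, 204 against 192). How far the difference in background enters the fold changes of MX1 and MX2 was not tested. With the estimated background subtracted, MX1 and MX2 dropped below the filter on low counts and could not be tested.

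**Figure D2:**
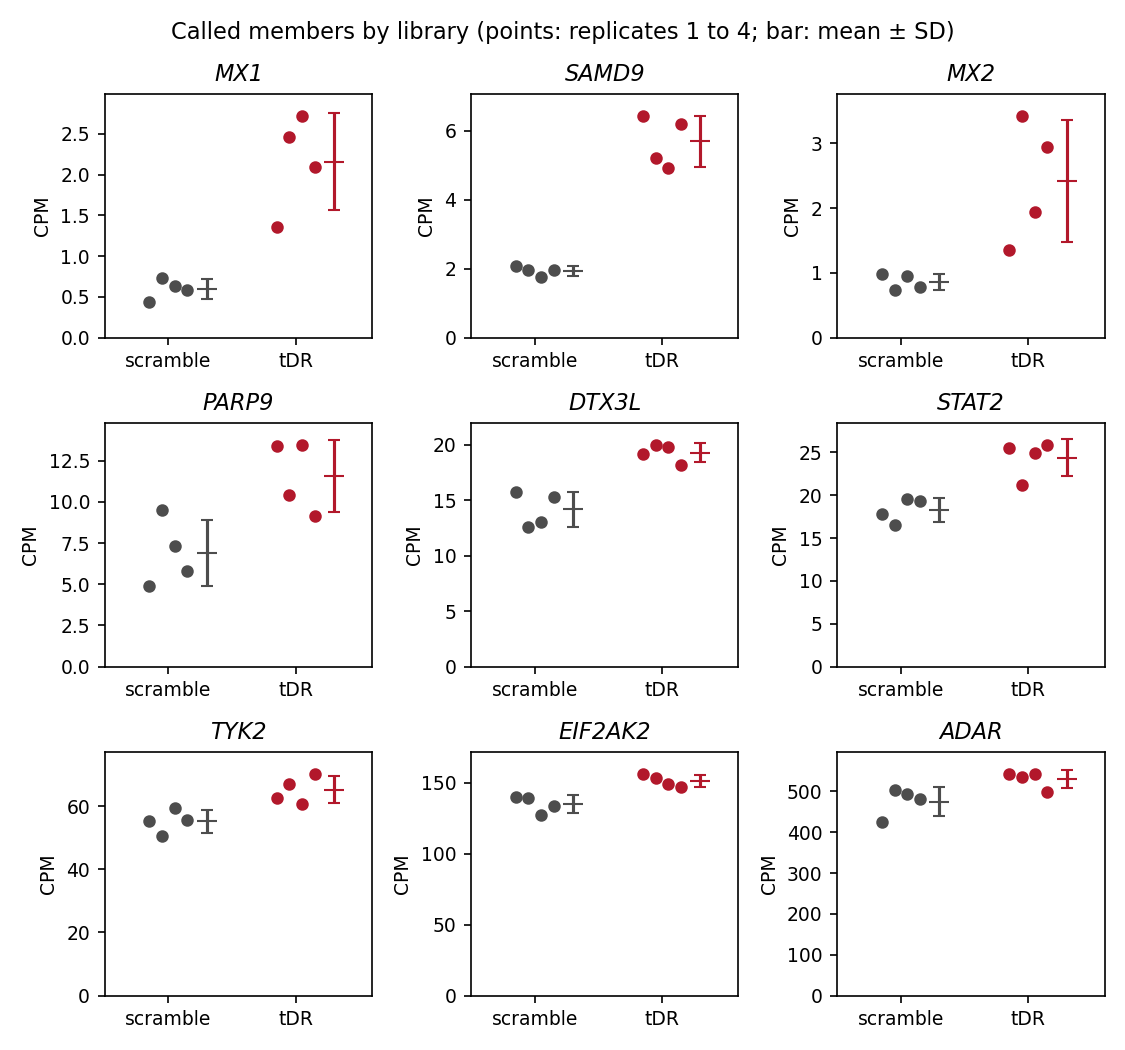
CPM (y axis, starting at 0) of the 9 called genes in each library, with the mean and SD beside the points for scramble (grey, n = 4) and tDR (red, n = 4). The groups are apart in 7 panels and overlap in PARP9 and ADAR. These genes were picked by the test on the same libraries, so the separation is not further support.

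SAMD9, an antiviral factor that restricts poxviruses, had the smallest adjusted p of the set. SAMD9 (chr7:93099513-93118023) had 19, 16, 11 and 20 counts in the scramble libraries and 38, 38, 38 and 59 in the tDR libraries. Its CPM was 2.08, 1.96, 1.75 and 1.96 with scramble and 6.43, 5.20, 4.92 and 6.19 with tDR. Every tDR library was above every scramble library, and the scramble libraries lay close together. The log2 fold change was 1.54 with an SE of 0.28 (edgeR, adjusted p = 3.29e-05). The estimated background was 22.4% of the scramble counts and 11.7% of the tDR counts, and with it subtracted the log2 fold change was 1.80 (edgeR, adjusted p = 0.000914). Of the other 2 restriction factors 1 was tested, and it was not called. SAMHD1, which depletes the nucleotides that reverse transcription needs, was at 34.2, 35.4, 40.0 and 35.3 CPM with scramble and 35.2, 36.6, 29.7 and 36.6 with tDR, and its 95% interval ran from -0.25 to 0.13 on the log2 scale. BST2, or tetherin, which holds budding virions at the membrane, had 7, 6, 0 and 0 counts with scramble and 0, 3, 7 and 2 with tDR and was not tested.

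PARP9 and DTX3L encode a member of the ADP-ribosyltransferase family and the E3 ubiquitin ligase that forms a complex with it. They stand head to head on chromosome 3, with annotated starts 339 bases apart and spans that share 340 bases. PARP9 (chr3:122527924-122564577) was at 4.93, 9.54, 7.31 and 5.80 CPM with scramble and 13.4, 10.4, 13.5 and 9.12 with tDR. The highest scramble library, replicate 2, reached above the lowest tDR library, replicate 4. The log2 fold change was 0.75 with an SE of 0.19 (edgeR, adjusted p = 0.00241). DTX3L (chr3:122564238-122575203) had 144, 103, 82 and 156 counts with scramble and 113, 146, 153 and 173 with tDR, or 12.6 to 15.8 CPM and 18.1 to 20.0 CPM. The groups did not overlap in CPM, and the log2 fold change was 0.43 with an SE of 0.13 (edgeR, adjusted p = 0.0112). Where reads carry no strand at counting, those of the shared stretch cannot be assigned to either gene. The estimated background was 12.7% of the PARP9 counts with scramble and 11.5% with tDR, and 1.75% and 1.98% of the DTX3L counts. PARP14, another ADP-ribosyltransferase 105 kb from DTX3L, was at 1.49 ± 0.392 CPM with scramble and 1.94 ± 0.698 with tDR and was not called. The estimated background was 78.7% of its counts with scramble and 93.0% with tDR.

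EIF2AK2 (PKR), a kinase that double-stranded RNA activates and that then shuts down translation, and ADAR, which edits adenosine to inosine in double-stranded RNA, were among the best counted genes of the set. EIF2AK2 (chr2:37099210-37157065) was at 140, 139, 127 and 133 CPM with scramble and 156, 154, 149 and 147 with tDR, and the groups did not overlap. Its log2 fold change was 0.16 with an SE of 0.05 (edgeR, adjusted p = 0.0219), a rise of 1.12-fold. ADAR (chr1:154582057-154628013) was at 424, 502, 492 and 481 CPM with scramble and 543, 536, 542 and 497 with tDR. Its groups overlapped, since tDR replicate 4 was below scramble replicate 2. The log2 fold change was 0.16 with an SE of 0.05 (edgeR, adjusted p = 0.0114). Both rises were small and both calls were fragile: testing all genes with a count ended them (edgeR, adjusted p = 0.139 for EIF2AK2 and 0.0606 for ADAR), as did DESeq2 for EIF2AK2 (adjusted p = 0.0844) and a correction for gene length and GC content for ADAR (edgeR, adjusted p = 0.169). The EIF2AK2 call was also lost without scramble replicate 3 or 4 (edgeR, adjusted p = 0.145 and 0.0892) or tDR replicate 1 or 2 (0.0712 and 0.0754), and the ADAR call without scramble replicate 1 (0.0699) or tDR replicate 2 or 3 (0.0529 and 0.0581).

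In the signalling chain below the interferon receptor STAT2 and TYK2 rose. STAT2, part of the complex that binds the ISRE, lies at chr12:56341597-56360155. It was at 17.8, 16.5, 19.5 and 19.4 CPM with scramble and 25.6, 21.2, 24.9 and 25.9 with tDR. The groups did not overlap, and the log2 fold change was 0.42 with an SE of 0.12 (edgeR, adjusted p = 0.00625). TYK2 (chr19:10350529-10380676), the kinase bound to IFNAR1, was at 55.4, 50.5, 59.4 and 55.5 CPM with scramble and 62.6, 67.1, 60.7 and 70.2 with tDR. Here too every tDR library was above every scramble library, with a log2 fold change of 0.24 and an SE of 0.08 (edgeR, adjusted p = 0.0125). The TYK2 call was lost with DESeq2 (adjusted p = 0.0542), after the length and GC correction (edgeR, adjusted p = 0.292) and without scramble replicate 2 or tDR replicate 4 (edgeR, adjusted p = 0.0625 and 0.0796). JAK1, the partner kinase, was at 171, 149, 161 and 158 CPM with scramble and 175, 165, 169 and 170 with tDR and was not called. IFNAR1, a chain of the receptor, was at 53.0 ± 3.19 CPM with scramble and 50.4 ± 2.05 with tDR and was not called, with a 95% interval from -0.23 to 0.08 on the log2 scale. IFNAR2, the other chain, had 9, 10, 2 and 9 counts with scramble and 12, 11, 11 and 10 with tDR. IRF9, the DNA-binding partner of STAT2, had 8, 1, 2 and 3 counts with scramble and 7, 3, 1 and 6 with tDR. Neither was tested, and both lie wholly inside the span of another annotated gene.

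None of the 6 tested genes among the sensors, their adaptor and the IRF factors was called. IFIH1, the sensor of long double-stranded RNA, was at 1.97, 2.08, 0.795 and 2.06 CPM with scramble and 2.71, 2.60, 4.28 and 2.83 with tDR. The groups did not overlap, scramble replicate 3 was far below the other scramble libraries and tDR replicate 3 far above the other tDR libraries. The log2 fold change was 0.81 with an SE of 0.34 (edgeR, adjusted p = 0.0770), and the estimated background was 67.6% of the scramble counts and 59.4% of the tDR counts. MAVS, the adaptor, was at 98.2, 99.2, 105 and 97.5 CPM with scramble and 115, 103, 99.1 and 109 with tDR. TRIM25, a ubiquitin ligase that acts on RIG-I, was at 50.5, 55.2, 53.2 and 61.9 CPM with scramble and 61.8, 63.8, 62.2 and 53.2 with tDR. Both overlapped between groups, and their 95% intervals, -0.03 to 0.22 for MAVS and -0.04 to 0.28 for TRIM25, include 0. DHX58 (LGP2), a helicase that regulates MDA5, had 5, 15, 7 and 13 counts with scramble and 10, 7, 11 and 5 with tDR. TLR3 had 2, 1, 0 and 7 counts with scramble and 1, 7, 6 and 6 with tDR, no more than the estimated background, and neither was tested.

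IRF3, which is activated by the sensors, was at 16.2, 15.3, 22.1 and 20.2 CPM with scramble and 19.1, 20.5, 18.1 and 25.2 with tDR, with a log2 fold change of 0.19 and a 95% interval from -0.07 to 0.44. IRF7, the factor that amplifies interferon production, was at 3.83 ± 1.67 CPM with scramble and 3.97 ± 1.96 with tDR, and its interval from -0.54 to 0.67 is wide. IRF2, which competes with IRF1 at the same DNA element, was at 15.8 ± 0.749 CPM with scramble and 16.7 ± 0.970 with tDR. The 3 factors overlapped between the groups.

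ISG15, USP18, ISG20, IFIT5 and B2M were tested and not called, and their 95% intervals on the log2 scale bound the size of a change. ISG15, a ubiquitin-like modifier, was at 14.9, 15.5, 14.1 and 17.4 CPM with scramble and 14.9, 14.7, 18.9 and 18.2 with tDR. Its log2 fold change was 0.11 with a 95% interval from -0.16 to 0.38. USP18, the protease that removes ISG15, was at 16.5, 21.2, 23.4 and 21.0 CPM with scramble and 23.2, 16.7, 19.7 and 18.1 with tDR, with an interval from -0.33 to 0.17. Both genes overlapped between groups. ISG20, an RNA exonuclease, was at 7.65 ± 0.455 CPM with scramble and 6.62 ± 1.33 with tDR, with an interval from -0.59 to 0.20. IFIT5, the only one of the 4 IFIT genes with counts, was at 12.5, 11.9, 16.8 and 13.3 CPM with scramble and 12.7, 17.7, 14.1 and 13.8 with tDR, with an interval from -0.18 to 0.41. B2M, the light chain of MHC class I, was at 59.3, 60.7, 57.1 and 51.2 CPM with scramble and 57.4, 58.1, 61.8 and 57.8 with tDR, with an interval from -0.11 to 0.20. ISG20, IFIT5 and B2M overlapped between the groups as well.

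The remaining IFI genes were low. IFI6, an inhibitor of apoptosis at the mitochondrion, was at 3.61, 2.69, 2.22 and 3.34 CPM with scramble and 3.72, 3.83, 2.33 and 3.15 with tDR. IFI27 had 17, 28, 12 and 30 counts with scramble and 15, 33, 21 and 20 with tDR, or 2.53 ± 0.777 and 2.97 ± 1.07 CPM (SD, n = 4 each). Their 95% intervals, -0.49 to 0.71 and -0.45 to 0.86, are wide enough to include the log2 fold change of STAT2. IFI35 was at 2.00 ± 1.02 CPM with scramble and 2.30 ± 0.715 with tDR. IFI44L was at 0.973 ± 0.657 CPM with scramble and 1.69 ± 0.353 with tDR, with an estimated background of 58.2% and 57.3%, and neither was called. IFI44 had 6, 5, 1 and 7 counts with scramble and 2, 3, 4 and 0 with tDR and was not tested.

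Levels between genes can be set side by side only per length, and exon length is a rough choice. Where reads from introns are counted too, it sets genes with long introns too high. JAK1 spans 133 kb with 6.32 kb of exon, and B2M 7.39 kb with 6.08 kb. OAS2, OAS3, IFIT1 and IFIT3 were at 0 although 0% of their exon bases lie in exons of other genes. Whether introns were counted was not tested, so the order below holds for this measure only. Per kb of annotated exon and with scramble, ADAR stood highest of the 28 tested genes at 49.0 CPM per kb, followed by JAK1 at 25.3, ISG15 at 16.5 and EIF2AK2 at 12.6. STAT2 was at 3.00 and DTX3L at 2.42 CPM per kb. The genes with the largest folds were low: SAMD9 was at 0.283, MX1 at 0.0695 and MX2 at 0.0663 CPM per kb with scramble. MX2 and MX1 were the lowest of the 28, and PARP14 at 0.142 and IFI44L at 0.0950, which were not called, lay between them and SAMD9. With tDR they were at 0.830, 0.251 and 0.185 CPM per kb, still below DTX3L.

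Genes were called higher more often the larger their estimated background. Among the 11488 tested genes with an estimate under 10% of their counts, 5.63% were called higher, and of the 18 genes of the set in that range 5 were: EIF2AK2, ADAR, STAT2, TYK2 and DTX3L. Among 1898 genes with 10 to 25%, 12.6% were called higher, and 2 of 5 of the set were, PARP9 and SAMD9. No tested gene of the set lay between 25 and 50%, where 20.5% of all genes were called higher. Above 50% of background, 41.5% of 2574 genes were called higher, and 2 of 5 of the set were, MX1 and MX2. A count of 2 of 5 is near that last share, and so is not a result about the MX genes in particular.

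**Figure D3:**
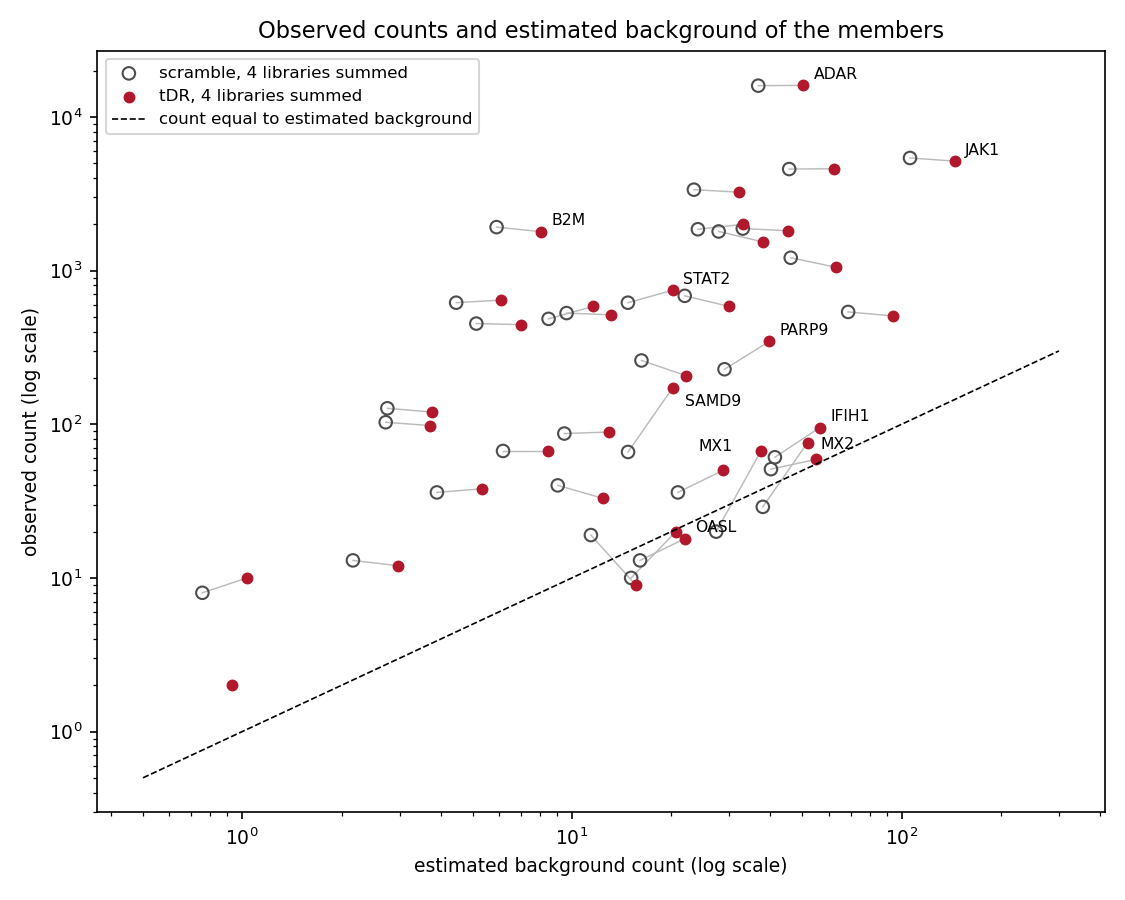
Observed counts (y axis, log scale) against estimated background counts (x axis, log scale) for the genes of the set with counts and an estimate, as open circles for the 4 scramble libraries summed and red circles for the 4 tDR libraries summed. MX1 and MX2 start below the dashed line of equality with scramble, at 20 and 29 counts, and lie above it with tDR, at 67 and 76, while SAMD9 lies well above it in both groups.

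A count of 0 set no limit on the level of 8 genes. IRF1, OAS2, OAS3, IFIT1, IFIT2, IFIT3, IFITM1 and TAP1 were at 0 in all 8 libraries, and each lies wholly inside the span of other annotated genes in GENCODE 29. IRF1 lies inside IRF1-AS1, IFIT1, IFIT2 and IFIT3 inside a long form of LIPA, IFITM1 inside a form of IFITM2, and TAP1 under PSMB8-AS1 and PSMB9. OAS2 and OAS3 lie inside an antisense gene (ENSG00000257452), and so does OAS1 except for 3.22% of its span, with 2 counts in tDR replicate 4 and 0 in the other libraries. Of all 1789 protein-coding genes that lie wholly inside others, 94.5% were at 0 in every library, against 5.81% of the 7114 that overlap none. TUBA1B, a tubulin gene that every cell uses, was among those at 0. The zeros of OAS2, IFIT1 and the like therefore do not show that these genes were silent, and they are listed at 0 only. OASL, a relative of the OAS genes that overlaps no other, had 4, 5, 2 and 2 counts with scramble and 3, 5, 6 and 4 with tDR, no more than the estimated background. IFITM2, which blocks viral fusion, had 12, 4, 13 and 7 counts with scramble and 5, 18, 7 and 8 with tDR. IFITM3 had 3, 1, 0 and 4 with scramble and 6, 0, 1 and 3 with tDR. The IFITM genes are near-identical relatives whose reads the counting could split, so these counts are uncertain.

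**Figure D4:**
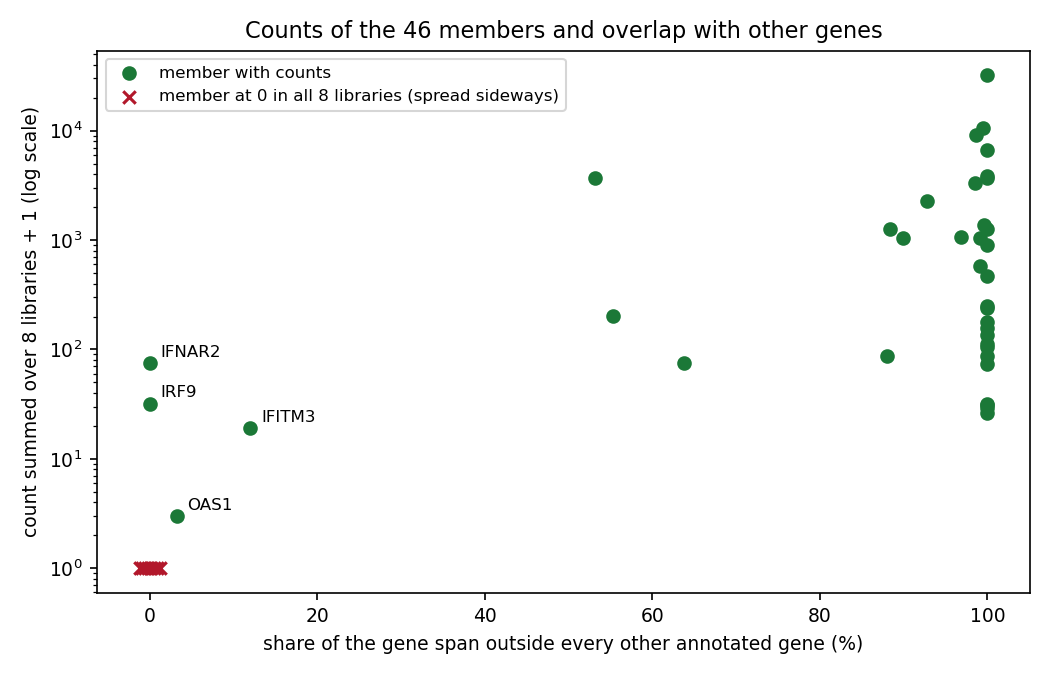
Counts summed over 8 libraries plus 1 (y axis, log scale) against the share of each gene's span that lies outside every other annotated gene (x axis, percent), for the 46 genes. The 8 genes at 0 counts, drawn as crosses and spread sideways, are all at 0%, where IFNAR2 and IRF9 also lie.

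A longer list of 150 other genes of RNA sensing, interferon signalling and interferon response was tested in the same fit. Of these 90 were tested, 17 rose and 5 fell, and their median log2 fold change was 0.10, against 12.8% higher and 11.4% lower over all genes tested. Among other sensors and regulators 4 of 26 rose and 3 fell, near those shares. TRIM56, an antiviral ubiquitin ligase, rose from 16.5 ± 1.79 to 24.4 ± 1.49 CPM (edgeR, adjusted p = 0.000327). The helicases DHX9, DHX15 and DHX36 fell, with log2 fold changes of -0.29, -0.23 and -0.19, and DHX9, which unwinds structured RNA, was at 676 ± 28.0 CPM with scramble and 553 ± 20.4 with tDR. Among 12 kinases and signal adaptors OPTN, a receptor of ubiquitin chains, and CYLD, a deubiquitinase, rose by log2 fold changes of 0.65 and 0.34, and SIKE1, a suppressor of IKK-epsilon, fell by 0.17. Of 15 tested genes of the IRF, STAT and JAK pathway only IFNLR1, a chain of the type III interferon receptor, rose, from 19.2 ± 3.19 to 27.3 ± 1.42 CPM (edgeR, adjusted p = 0.000668).

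Of 28 other interferon-stimulated genes tested 8 rose and 1 fell. SP100, a nuclear body protein, and TRANK1 had log2 fold changes of 1.41 and 1.27, but the estimated background exceeded their scramble counts, at 230% and 140%. EPSTI1 rose from 5.14 ± 1.78 to 9.04 ± 1.72 CPM, with an estimated background of 46.8% and 41.8%. LAP3, a peptidase, fell from 44.1 ± 2.13 to 34.5 ± 2.80 CPM (edgeR, adjusted p = 0.00255). Of 9 tested genes of antigen processing TAPBP (tapasin) and HLA-C rose, by log2 fold changes of 0.55 and 0.27. None of the 15 interferon genes, of which 3 lie inside other genes, could be tested. They held 11 counts in the scramble libraries and 11 in the tDR libraries. The estimated backgrounds were 13.1 and 17.9, so these counts were not above background at this depth. For the 3 genes inside other genes, the counts set no limit on the level. DDX58, the gene of RIG-I, had 1 count over all 8 libraries, below an estimated background of 56.4 in the scramble libraries alone, and its level cannot be read from this table. DDX58 was named after its values were seen.

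Total counts per library ran from 6536554 to 10557740 with scramble and from 5848305 to 9237986 with tDR. HEK293 markers were detected apart from HOXA10. It was near 0, but only 2.56% of its span lies outside other genes, so its level cannot be read here. The summed level of the 9 genes, among them NEFM, VIM and CDH2, was 844 to 908 CPM with scramble and 764 to 808 with tDR, with 2 genes called higher and 3 lower. Of 10 leukocyte markers 3 were tested and 1, ITGAM, was called higher, with an estimated background of 119% of its scramble counts and 87.6% of its tDR counts. CD68 was at 0, but it lies wholly inside the span of other genes, so that count sets no limit on its level. The sums of the leukocyte markers were 7.44 to 13.8 CPM with scramble and 11.5 to 17.3 with tDR. Of 8 fibroblast and endothelial markers 6 were tested and 4 were called higher, with sums of 25.3 to 31.8 CPM and 43.0 to 51.3 CPM. The estimated background was over 50% of the counts of PDGFRB, PECAM1 and CDH5, and 2.57% of those of COL1A1. The part of these genes in the results above was not tested.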

How the data were processed

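The data are 8 HEK293 libraries of long RNA, 4 per group. The authors deposited whole-number read counts per gene, not normalized, per the file headers and values. Per the labels' protocols, RNA was extracted with TRIzol and libraries were made with a stranded low-input total RNA kit. The submitters' processing notes name featureCounts 2.0.2, STAR 2.7.8a, DESeq2 1.30.1, cutadapt 2.10 and FastQC 0.11.9, and the builds hg38 and GRCh38.p13. Not given in the sources used here: the strand setting, annotation release and handling of reads that fit several genes or places. Overlapping, antisense and near-identical genes are uncertain for that reason.

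In R 4.3.3, edgeR 4.0.16 (quasi-likelihood F test) was run on all 8 libraries with TMM scaling and edgeR's filter on low counts, with group as the only term. It left 17184 of 60606 genes, and p-values were Benjamini-Hochberg adjusted over them. SE and 95% intervals were derived from the F statistic. The test was checked on simulated data. GENCODE 29 gave spans and exons for 57002 genes and for all 46 of the set, and 97.1% of tested genes had a length and GC content. Background was estimated per library as the count density of 270 olfactory receptor genes times the part of each gene's span outside other genes. Alternatives were library size alone, DESeq2 size factors, DESeq2 1.42.0, no filter on low counts, the replicate block, subtracted background, each library left out and, added after seeing the data, a length and GC correction. Every pair of libraries differed by more than counting noise (chi-square per degree of freedom from 2.13 to 7.36).

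The members and lists were chosen with earlier results of these data known. Values per library are given for called genes and for the 2 best counted of each role, and genes with a mean under 10 counts are given as raw counts. Of the other pathway genes up to 4 called genes per role are named, smallest p first, as are members with an adjusted p from 0.05 to 0.1. No sequence of the mimics was used here. Promoter windows came from RefSeq (GRCh38.p14), where 11 of the 46 genes had none.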

Additional observations from a re-analysis of the deposited data

Results flagged for a closer look

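In 5 of the 56 groups of 4 libraries examined, 1 library stood apart from the other 3 by more than Dixon's 95% critical value, where chance gives about 1 in 20. IFIH1 was at 0.795 CPM in scramble replicate 3 against 1.97 to 2.08 in the other scramble libraries, and at 4.28 CPM in tDR replicate 3 against 2.60 to 2.83. The raw IFIH1 counts behind these values are 5 and 33. ADAR was at 497 CPM in tDR replicate 4 against 536 to 543 in the other tDR libraries. PARP14 was at 2.08 CPM in scramble replicate 1 against 1.27 to 1.35. B2M was at 61.8 CPM in tDR replicate 3 against 57.4 to 58.1.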

How the results depend on the processing

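Of the 9 called genes, SAMD9, STAT2, PARP9 and DTX3L were called under all 15 alternatives run, and MX1 and MX2 under the 14 that could test them. TYK2 was called under 11, ADAR under 10 and EIF2AK2 under 9, and no called gene changed direction. The set had 7 to 12 genes called higher under every alternative, 7 to 8 with 1 library left out, and 0 lower. JAK1, MAVS and IFIH1 were called with library size alone (edgeR, adjusted p = 0.0158, 0.0262 and 0.0491) and under no other alternative. Over all genes, library size alone gave 3295 higher and 907 lower and moved the median log2 fold change to 0.10. DESeq2's Wald test gave 1441 higher and 2184 lower, the length and GC correction 1767 higher and 2923 lower, and subtracting the background 996 higher and 936 lower, where the reported counts are 2206 higher and 1962 lower. Leaving out 1 library gave 1640 to 2200 higher and 1511 to 2109 lower. Of the other pathway genes 11 were higher and 3 lower with the background subtracted, and 3 lower with library size alone. With 1 library left out 11 to 17 were higher and 4 to 7 lower, the 11 without tDR replicate 2. The replicate block gave 9 genes of the set higher, and 2040 higher and 1834 lower over all genes. Same-numbered libraries did not deviate together (correlations -0.01, 0.07, -0.03 and 0.02), so the numbers were not treated as paired. The causes of these shifts were not tested. At the depth of these libraries, the genes under about 1 CPM rest on few counts, and their folds are the least certain.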
